A study of Mus musculus with 47 samples.

Results

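In untreated control cells, 3975 PHF10 sites carried no peak of BRG1. They were selected on the deposited peak lists themselves: a site had to be called in both control PHF10 libraries at 0 h, with overlapping peaks joined, and to share no base with a peak of the single control BRG1 library at 0 h. They made up 46.0% of the 8634 PHF10 sites of both libraries (95% exact Clopper-Pearson interval 45.0 to 47.1), and the other 4659 sites had BRG1 and serve below as the comparison. Taken from 1 PHF10 library alone, the sites without BRG1 would number 6614 (replicate 1) or 8923 (replicate 2). The whole series held 806216 peaks in 32 lists on chromosomes 1 to 19, X and Y.

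The cells were NMuMG, an established mouse mammary epithelial line that loses its epithelial character when given TGFβ1, a secreted growth factor. Control cells and cells with a Pbrm1 knockout (KO) were left untreated (0 h) or given TGFβ1 at 5 ng/ml for 24 or 48 h. PHF10 was profiled in control cells in 2 libraries at 0 h, 1 at 24 h and 2 at 48 h, and in KO cells in 1 library at 0 h and 1 at 48 h. ATF3, FOSL2 and FOSB, stress- and growth-responsive transcription factors, were profiled once per genotype at each of their times, and BRG1 and 5 histone marks in control cells only. All cells were of 1 line, and the labels do not say whether the knockout was a clone or a pool, or whether the replicates came from separate cultures. BRG1 was profiled in 1 library of untreated control cells, so no comparison of BRG1 with treatment or genotype was possible. The H3K4me3 list at 0 h was checked against the label and had a peak within 2 kb of a start of 8 of 8 defining epithelial markers, of 31 of 35 epithelial genes, of 11 of 25 markers of other cell types and of 63.0% of all protein-coding genes. Peak lists do not measure the expression of Pbrm1, so the knockout itself was not checked.

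SWI/SNF complexes use ATP to move or evict nucleosomes, and BRG1 (Smarca4) is 1 of their alternative ATPase subunits. PBAF is the form of the complex that contains PHF10, PBRM1, ARID2 and BRD7, and PHF10 is not part of the other forms. H3K4me3 marks promoters, H3K4me1 is typical of enhancers and of the flanks of promoters, and acetylation of H3 at K27, K14 and K18 accompanies active promoters and enhancers. BRM (Smarca2), the alternative ATPase, was not profiled here.

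Of the sites without BRG1, 2034 (51.2%) overlapped a RefSeq promoter window and 1743 (43.8%) a CpG-rich one, as counted below. Of those with BRG1, the shares were 71.6% and 65.9%. Sequence away from these windows was not read, and the windows used here cover the starts of part of the genes only. The following windows show such promoters. Each is the RefSeq window of 250 bases before and 50 bases after a gene start in GRCm38.p6 (mm10), written along the gene's strand, with every CpG in capitals. Hoxa13, a patterning factor of limb and urogenital tract (chr6:52260831-52261130, minus strand), Twist1 (chr12:33957421-33957720, plus strand) and Snai1 (chr2:167537945-167538244, plus strand), both drivers of the epithelial-mesenchymal transition, and Pbrm1 itself (chr14:31018888-31019187, plus strand) had a PHF10 site without BRG1 over the window. The window of Brd7 (chr8:88362123-88362422, minus strand), which like Pbrm1 encodes a subunit specific to PBAF, had a site with BRG1; these 5 genes were chosen after their values were seen.
Hoxa13: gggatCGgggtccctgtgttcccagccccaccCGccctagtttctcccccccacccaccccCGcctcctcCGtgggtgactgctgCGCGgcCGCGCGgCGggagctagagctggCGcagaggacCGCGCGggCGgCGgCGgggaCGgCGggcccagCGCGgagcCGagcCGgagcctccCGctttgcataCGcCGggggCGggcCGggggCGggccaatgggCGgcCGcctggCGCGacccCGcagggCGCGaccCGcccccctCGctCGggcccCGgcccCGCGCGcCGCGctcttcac
Twist1: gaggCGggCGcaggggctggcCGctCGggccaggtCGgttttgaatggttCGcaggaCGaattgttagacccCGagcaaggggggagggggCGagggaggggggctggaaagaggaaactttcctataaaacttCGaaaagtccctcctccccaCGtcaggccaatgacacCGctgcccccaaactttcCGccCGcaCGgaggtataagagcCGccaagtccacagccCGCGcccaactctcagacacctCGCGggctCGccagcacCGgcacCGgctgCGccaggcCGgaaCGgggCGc
Snai1: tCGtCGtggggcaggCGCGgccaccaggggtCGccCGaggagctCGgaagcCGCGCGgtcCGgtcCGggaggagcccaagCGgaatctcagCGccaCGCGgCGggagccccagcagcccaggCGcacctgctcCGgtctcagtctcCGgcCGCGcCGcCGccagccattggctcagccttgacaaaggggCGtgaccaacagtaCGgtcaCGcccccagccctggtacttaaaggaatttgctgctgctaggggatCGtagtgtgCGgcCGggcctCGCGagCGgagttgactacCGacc
Pbrm1: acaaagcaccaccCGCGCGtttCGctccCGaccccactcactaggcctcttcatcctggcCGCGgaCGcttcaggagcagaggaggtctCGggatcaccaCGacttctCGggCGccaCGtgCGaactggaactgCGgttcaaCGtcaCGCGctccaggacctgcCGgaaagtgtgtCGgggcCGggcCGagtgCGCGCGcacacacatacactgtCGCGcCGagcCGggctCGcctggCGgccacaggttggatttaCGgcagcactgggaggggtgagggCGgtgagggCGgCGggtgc
Brd7: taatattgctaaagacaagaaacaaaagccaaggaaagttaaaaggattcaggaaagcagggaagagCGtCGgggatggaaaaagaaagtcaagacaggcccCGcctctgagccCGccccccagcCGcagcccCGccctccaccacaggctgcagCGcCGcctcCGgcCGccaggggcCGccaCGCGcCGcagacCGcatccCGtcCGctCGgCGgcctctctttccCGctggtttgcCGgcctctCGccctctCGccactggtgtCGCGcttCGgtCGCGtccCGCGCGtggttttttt
The windows held 45 CpG in Hoxa13, 27 in Twist1, 34 in Snai1, 35 in Pbrm1 and 31 in Brd7. The GC content was 81.0%, 66.0%, 70.0%, 68.0% and 64.0% in the same order, and the ratio of observed to expected CpG 0.918, 0.827, 0.925, 1.01 and 1.03. The site covered all 300 bases of the Hoxa13, Twist1 and Snai1 windows, 252 bases of the Pbrm1 window and 249 of the Brd7 window.

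Among all 32851 promoter windows of the RefSeq table, 2565 overlapped a site without BRG1 and 4455 a site with BRG1. Windows under sites without BRG1 had a median GC content of 67.0% and a median ratio of observed to expected CpG of 0.838 (quartiles 0.708 and 0.951). Windows under sites with BRG1 stood slightly higher, at 68.7% and 0.879, and windows with no PHF10 site were far lower, at 50.0% and 0.279. A window was counted as CpG-rich with a GC content of at least 55% and a ratio of at least 0.6. By that count, 84.5% of the windows without BRG1 (95% interval 83.0 to 85.9), 90.5% of those with BRG1 (89.7 to 91.4) and 14.5% of those with no site were CpG-rich. Among windows with no PHF10 site that had H3K4me3 at 0 h, 54.9% were CpG-rich. CpG content thus separated promoters with PHF10 from the rest far more than it separated promoters without BRG1 from those with it.

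**Figure D1:**
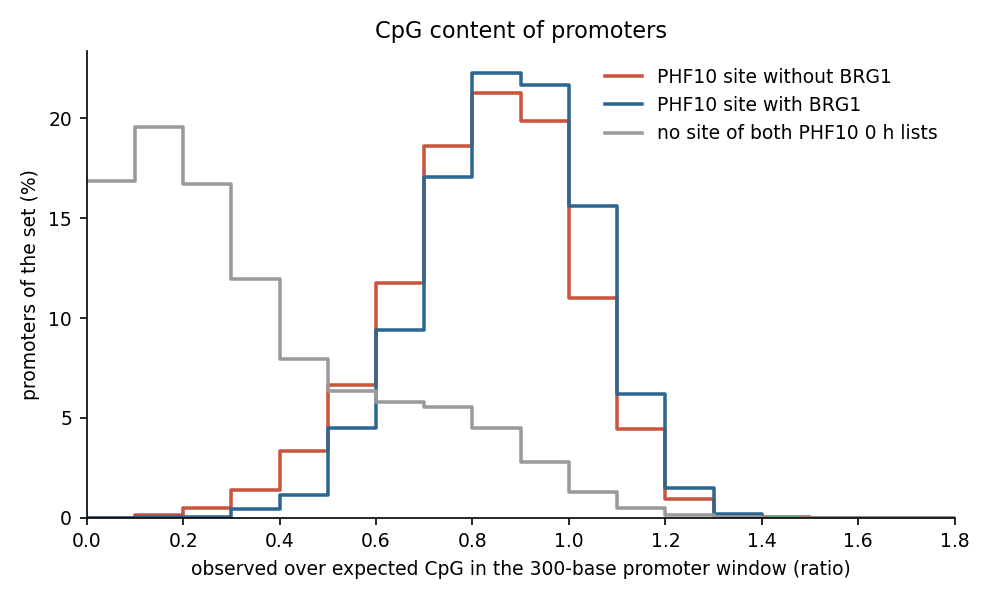
Distribution of the observed over expected CpG ratio (x axis) over RefSeq promoter windows, as the percent of windows of each set (y axis), for windows under PHF10 sites without BRG1 (n = 2565), with BRG1 (n = 4455) and with no PHF10 site (n = 25831). Both PHF10 curves peak between 0.8 and 1.0 and nearly coincide, with medians of 0.838 and 0.879, while promoters without a site have a median of 0.279.

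Short sequence motifs were counted on both strands of the same windows, as letters only and with no claim of binding. The GC box (GGGCGG), read by SP and KLF factors, stood in 77.5% of the windows without BRG1, 83.6% of those with BRG1 and 35.7% of all windows. The ETS motif (CCGGAAG) stood in 14.4%, 15.1% and 8.86%, and the NRF1 core motif (TGCGCA) in 15.0%, 14.9% and 7.76%. The E-box (CANNTG), which Twist and Snail factors and many others read, stood in 60.7% without BRG1 (58.8 to 62.6), 53.7% with BRG1 (52.2 to 55.2) and 72.3% of all windows. The AP-1 motif (TGANTCA) was found in 2.73% without BRG1, 2.94% with BRG1 and 7.81% of all windows. The cAMP response element read by ATF factors (TGACGTCA) was found in 2.42%, 3.28% and 1.79%, the CCAAT box (CCAAT) in 31.5%, 30.5% and 37.4%, and the TATA box (TATAAA) in 3.98%, 4.13% and 13.6%. The E-box and GC box were the motifs whose intervals did not overlap between sites without and with BRG1. Motifs can overlap each other, and the share of windows with a GC-rich motif moves with GC content.

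The values that chose the sites are given as a description. PHF10 enrichment is the authors' fold of ChIP over input at a peak, and where peaks were joined the highest was taken. Sites without BRG1 had a median fold of 8.78 in replicate 1 and 3.95 in replicate 2, against 11.5 and 4.32 at sites with BRG1, and a median width of 612 bp against 790 bp. When all 8634 sites were split into 3 equal strata by their mean fold over both replicates, 61.2% of the lowest stratum, 49.2% of the middle and 27.8% of the highest had no BRG1. The nearest BRG1 peak lay a median of 23073 bp away, with 4.83% of the sites within 1 kb of one and 84.6% within 100 kb.

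The line between the sets was thin in BRG1 strength. BRG1 peaks over PHF10 sites had a median fold of 2.84 and a median −log10 q of 2.15, and only 116 of the 4659 sites with BRG1 had a BRG1 peak with a −log10 q of at least 5. Absence of a call therefore does not show absence of the protein. Just inside the limit lay sites at Prkca and Ripk4, 1 and 2 bp from a BRG1 peak, at Npr1 and Rims1, 2 and 7 bp from one, and inside Mast3, 7 bp from one. In all, 19 sites without BRG1 lay within 50 bp of one. Just outside it lay sites at Twf2, Dok4 and Slc27a2, which shared 1, 3 and 6 bp with a BRG1 peak, and 33 sites with BRG1 shared at most 50 bp. Their PHF10 folds in replicate 1 were 14.5 at Prkca and 5.09 at Ripk4, and 8.48, 8.11 and 10.3 at Twf2, Dok4 and Slc27a2. The farthest sites, with no BRG1 peak over more than 3 Mb, included the promoters of Ufl1, which attaches the ubiquitin-like UFM1 to proteins, and Slitrk5, a neuronal adhesion protein, 3401489 and 3205129 bp from the nearest peak, and 3 sites among predicted genes on chromosome 14 (Gm5796, Gm8108 and Gm3159).

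The other lists, each a single library with no test between arms, were read first for histone marks, and the later PHF10 lists are described further on. H3K4me3 at 0 h covered 99.1% of them (98.8 to 99.4), against 100% of the sites with BRG1 (99.6% of all 8634 sites). H3K27ac at 0 h covered 91.2% (90.2 to 92.0) against 99.8% (95.9% of all sites). H3K4me1 at 0 h went the other way and covered 73.3% (71.9 to 74.7) against 38.8% (54.7% of all sites). The H3K4me1 list at 0 h had a median fold of 3.44 and none above 8.18. H3K14ac at 0 h covered 16.9% (15.8 to 18.1) against 49.9% (34.7% of all sites), and H3K18ac at 0 h covered 4.25% (3.65 to 4.93) against 27.5% (16.8% of all sites). These intervals and all later ones cover counting error only, and nearby sites are not independent.

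**Figure D2:**
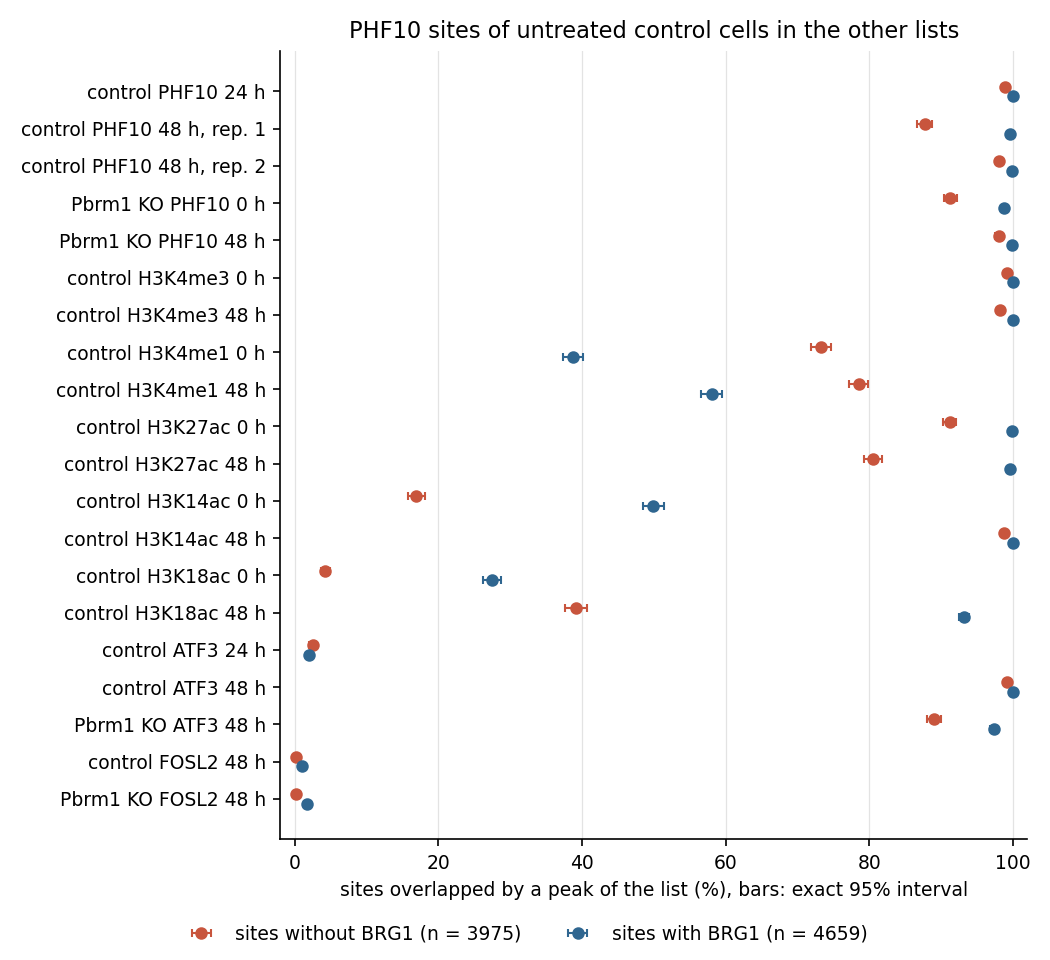
Share of PHF10 sites overlapped by a peak of each other list (x axis, percent, with exact 95% intervals), for the 3975 sites without BRG1 and the 4659 with BRG1. The sets lie close together in the H3K4me3, control ATF3 48 h and most PHF10 lists. They are less close in control PHF10 at 48 h, replicate 1 (87.7% against 99.6%), and KO PHF10 at 0 h (91.3% against 98.7%). They lie farthest apart in H3K18ac at 48 h (39.2% against 93.2%), with H3K4me1 the mark that is more frequent without BRG1.

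The strength of the marks split the sites without BRG1 into a weak and a strong group. The H3K4me3 peak at 0 h over a site had a median fold of 15.8 without BRG1 and 64.6 with BRG1, within the same list. For H3K27ac at 0 h the medians were 8.16 (quartiles 4.64 and 60.9) and 98.9. Classes of H3K27ac fold were set after the values were seen. No H3K27ac peak covered 8.83% of the sites without BRG1, a fold under 10 was found at 49.3%, 10 to 50 at 15.5% and 50 or more at 26.3%. Of the sites with BRG1, 0.150%, 2.58%, 13.4% and 83.9% fell in the same classes. Read the other way, 94.2% of the 2081 PHF10 sites with weak H3K27ac (fold under 10) had no BRG1 (93.1 to 95.2), and 21.1% of the 4955 sites with a fold of 50 or more (20.0 to 22.3).

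**Figure D3:**
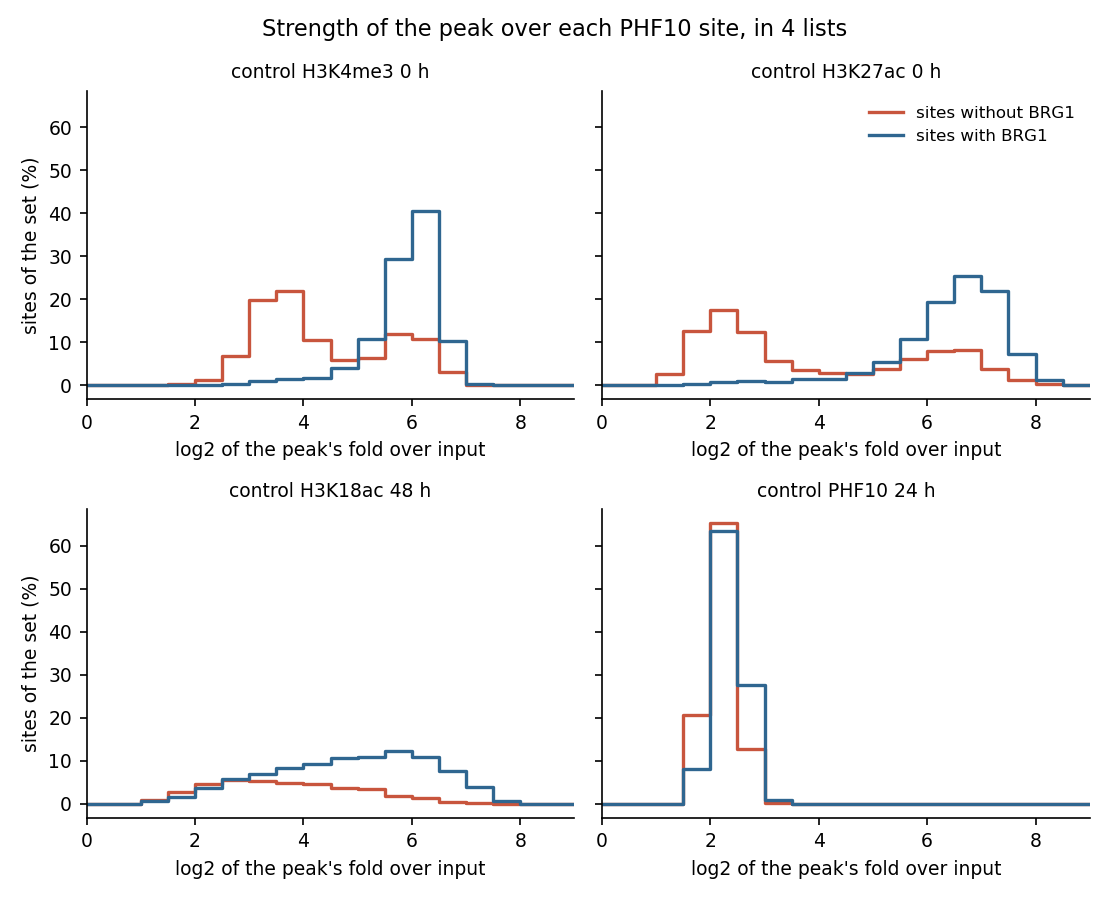
Strength of the peak over each site in 4 lists, as log2 of the authors' fold over input (x axis) against the percent of all sites of the set (y axis), so that uncalled sites are missing from a curve. In H3K4me3 and H3K27ac at 0 h the sites without BRG1 form 2 humps, with a median fold of 15.8 and 8.16, and the sites with BRG1 form 1 hump near the upper of these, with medians of 64.6 and 98.9; the PHF10 curves at 24 h lie close together, with medians of 4.59 and 5.12.

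The weak group carried H3K4me1 almost throughout. Of the 1961 sites without BRG1 and with an H3K27ac fold under 10, 98.5% had H3K4me1 and 100% H3K4me3 at 0 h, and 62.9% lay at a protein-coding start. Of the 1045 sites without BRG1 and with an H3K27ac fold of 50 or more, 20.4% had H3K4me1 and 95.8% lay at such a start. Within classes of H3K27ac fold the sets drew nearer in H3K4me1 at 0 h. In the class under 10, H3K4me1 at 0 h covered 98.5% of the sites without BRG1 and 100% of the 120 with it. In the class of 10 to 50 it covered 77.99% and 77.17%. In the class of 50 or more the order turned, at 20.4% without BRG1 and 30.7% with it. The excess of H3K4me1 without BRG1 was thus not seen within these classes. In the class of 10 to 50, H3K18ac at 48 h covered 61.8% of the sites without BRG1 and 74.0% with it, and in the class of 50 or more 94.6% and 98.8%. H3K14ac at 0 h still stood apart in the latter class, at 26.0% (23.4 to 28.8) against 55.9% (54.3 to 57.4). So did H3K18ac at 0 h (13.8% against 32.4%) and H3K4me1 at 48 h (32.7% against 53.1%). In the class of 10 to 50, H3K14ac at 0 h covered 17.5% without BRG1 and 18.8% with it. The class of 50 or more has no upper limit, so its sites can still differ in H3K27ac.

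Combinations of marks at 0 h were as follows. H3K4me3 with H3K27ac and H3K4me1 stood at 66.1% of the sites without BRG1 and 38.6% of those with it, and H3K4me3 with H3K27ac alone at 25.1% and 61.2%. H3K4me3 with H3K4me1 and no H3K27ac stood at 288 sites without BRG1 (7.25%) and 7 with it (0.150%). None of the 3 marks covered 34 sites without BRG1. The median width of the H3K4me3 peak was 889 bp without BRG1 and 1143 bp with it.

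The gaps in H3K27ac, H3K4me3 and H3K4me1 were present at like PHF10 strength, although that of H3K4me1 was not present within the H3K27ac classes. In the lowest, middle and highest stratum of PHF10 fold, the median H3K27ac fold was 8.88, 8.04 and 7.41 without BRG1 and 73.1, 93.4 and 119 with it. The median H3K4me3 fold was 15.6, 16.3 and 15.1 without BRG1 and 56.6, 62.4 and 69.5 with it. H3K4me1 at 0 h covered 68.2%, 75.9% and 80.0% without BRG1 and 35.2%, 39.7% and 40.1% with it. H3K14ac at 0 h covered 1.99%, 15.5% and 52.3% without BRG1 and 3.85%, 34.6% and 85.4% with it. Its share thus rose steeply with PHF10 fold in both sets, and its gap was small in the lowest stratum. The gaps in H3K27ac and H3K4me1 were present at like position too. At protein-coding starts alone, the median H3K27ac fold was 15.7 at 2913 sites without BRG1 and 101 at 4269 sites with it. H3K4me1 covered 67.4% and 36.7% of these sites.

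By position, 73.3% of the sites without BRG1 lay within 2 kb of a protein-coding start (71.9 to 74.7), against 91.6% of those with it (83.2% of all 8634 sites). A further 14.8% lay inside a protein-coding gene away from starts and 4.88% outside genes, against 4.38% and 1.35%. The 813 sites away from any start had H3K4me3 at 0 h in 95.7%, H3K4me1 in 89.8% and H3K27ac in 82.0%, the last with a median fold of 5.46. On chromosome X, 139 of 201 PHF10 sites had no BRG1 (69.2%, 62.3 to 75.5), and on the autosomes 3836 of 8431 (45.5%, 44.4 to 46.6). At protein-coding starts the shares were 65.8% on X and 40.0% on the autosomes, so the gap was present at starts too. The BRG1 list had 1.07% of its peaks on X and the PHF10 lists at 0 h 2.58% and 3.09%. A low share was not limited to BRG1. At 0 and 48 h the H3K18ac lists had 0.892% and 1.11% on X, and the H3K4me3 lists 3.49% and 3.66%.

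Genes at the sites were counted within 2 kb of a start. A site without BRG1 stood at 14% of the 21887 protein-coding genes and a site with BRG1 at 21.4%, and the lists below are read beside these shares, with no test. The Hox genes, homeobox factors in 4 clusters that set position along the body axis, had them as follows: 21 of 39 had a site without BRG1 and 0 had one with BRG1. Of 149 genes in families of developmental transcription factors, 69 had a site without BRG1 (46.3%) and 43 one with BRG1 (28.9%), with 7 in both. Among them were 9 of 14 Nkx genes (Nkx2-1, Nkx2-2, Nkx2-5 and Nkx6-1 included) against 1 with BRG1, 11 of 19 Sox genes (Sox1, Sox10, Sox17) against 5, and 3 of 3 Olig genes against 0. The Fox genes did not follow, with 16 of 44 without BRG1 and 21 with it.

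The Hippo and AP-1 lists had the opposite order. None of 20 Hippo pathway targets had a site without BRG1, and 14 had one with BRG1. Of 20 AP-1 and ATF genes, Mafk alone, a small Maf partner of the AP-1 family, had a site without BRG1, and 12 had one with BRG1. Of 24 shared and BAF subunits of SWI/SNF, 7 (29.2%) had a site without BRG1 (Actl6a, Actl6b, Brd9, Dpf1, Dpf3, Smarcc1 and Smarce1) and 14 one with it. Of the 4 subunits specific to PBAF, Pbrm1 had a site without BRG1 and the other 3 one with it. The counts were 3 and 7 of 20 housekeeping genes, 11 and 15 of 83 cytosolic ribosomal protein genes, 5 and 12 of 86 respiratory chain genes, 34 and 82 of 394 Zfp genes, 2 and 0 of 1106 olfactory receptor genes, 3 and 5 of 39 proteasome genes and 3 and 6 of 67 histone genes. Of 25 markers of other cell types, Kdr, Myod1 and Olig2 had a site without BRG1.

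**Figure D4:**
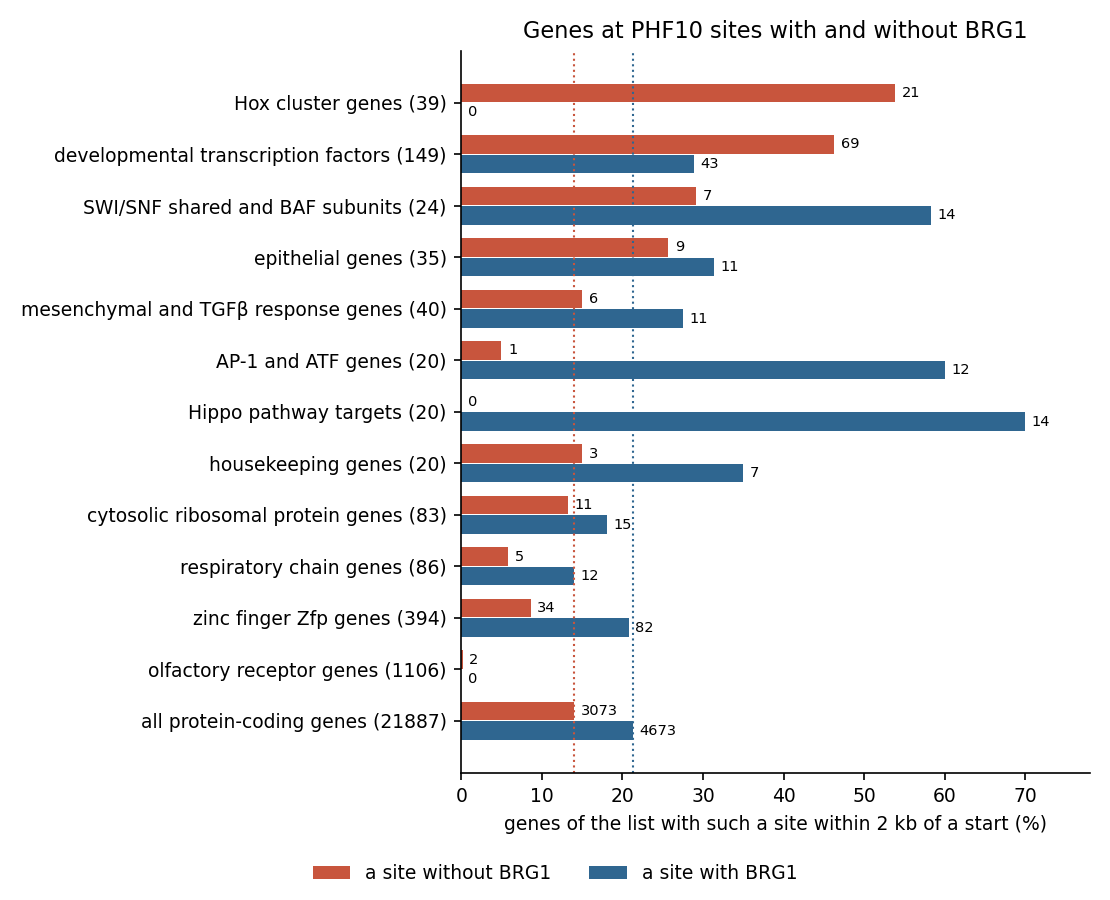
Percent of the genes of each list (x axis; list size in brackets) with a PHF10 site without BRG1 (upper bar) or with BRG1 (lower bar) within 2 kb of a start, with the number of genes beside each bar. Dotted lines mark the shares over all protein-coding genes, 14% and 21.4%; the Hox genes (21 and 0) and developmental factors (69 and 43) lean to sites without BRG1, and the AP-1 and ATF genes (1 and 12) and Hippo targets (0 and 14) to sites with it.

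The 4 Hox clusters, with 10 kb beyond their outer genes, held 26 PHF10 sites, all without BRG1: 7 in Hoxa, 8 in Hoxb, 4 in Hoxc and 7 in Hoxd. Over the same windows the BRG1 list had 6 peaks, the H3K4me3 list 111, the H3K27ac list 40 and the H3K4me1 list 89. The nearest BRG1 peak lay 3098 to 107615 bp from a site, with a median of 25470 bp. H3K4me3 and H3K4me1 at 0 h covered 26 of 26 sites and H3K27ac 20, with a fold of at least 10 only at Hoxa4 (69.5) and Hoxa5 (48.1). The PHF10 fold ranged from 4.21 to 14.1 in replicate 1 (median 10.4) and from 3.16 to 5.17 in replicate 2 (median 3.86).

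PHF10 at the Hox sites was called in nearly every other PHF10 list: 26 of 26 at 24 h, 25 and 26 in the 48 h replicates, 22 in KO cells at 0 h and 26 in KO cells at 48 h. Over all 8634 sites the shares called in these lists were 99.5%, 94.2%, 99.0%, 95.3% and 99.1%. At Hoxd11 (chr2:74681924-74683265), for example, the folds were 13.4 and 3.69 at 0 h, 4.32 at 24 h, 2.81 and 3.12 at 48 h, and 7.03 and 3.16 in KO cells at 0 and 48 h. At Hoxa13 (chr6:52259914-52261206) they were 11.4 and 3.35, 4.67, 2.83 and 2.90, and 6.90 and 3.63. Folds of different lists are not on 1 scale, so these values show calls in every list and no trend. H3K18ac at 48 h covered 3 of the 26 sites, against 68.3% of all sites, and H3K14ac at 48 h all 26, against 99.4%.

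**Figure D5:**
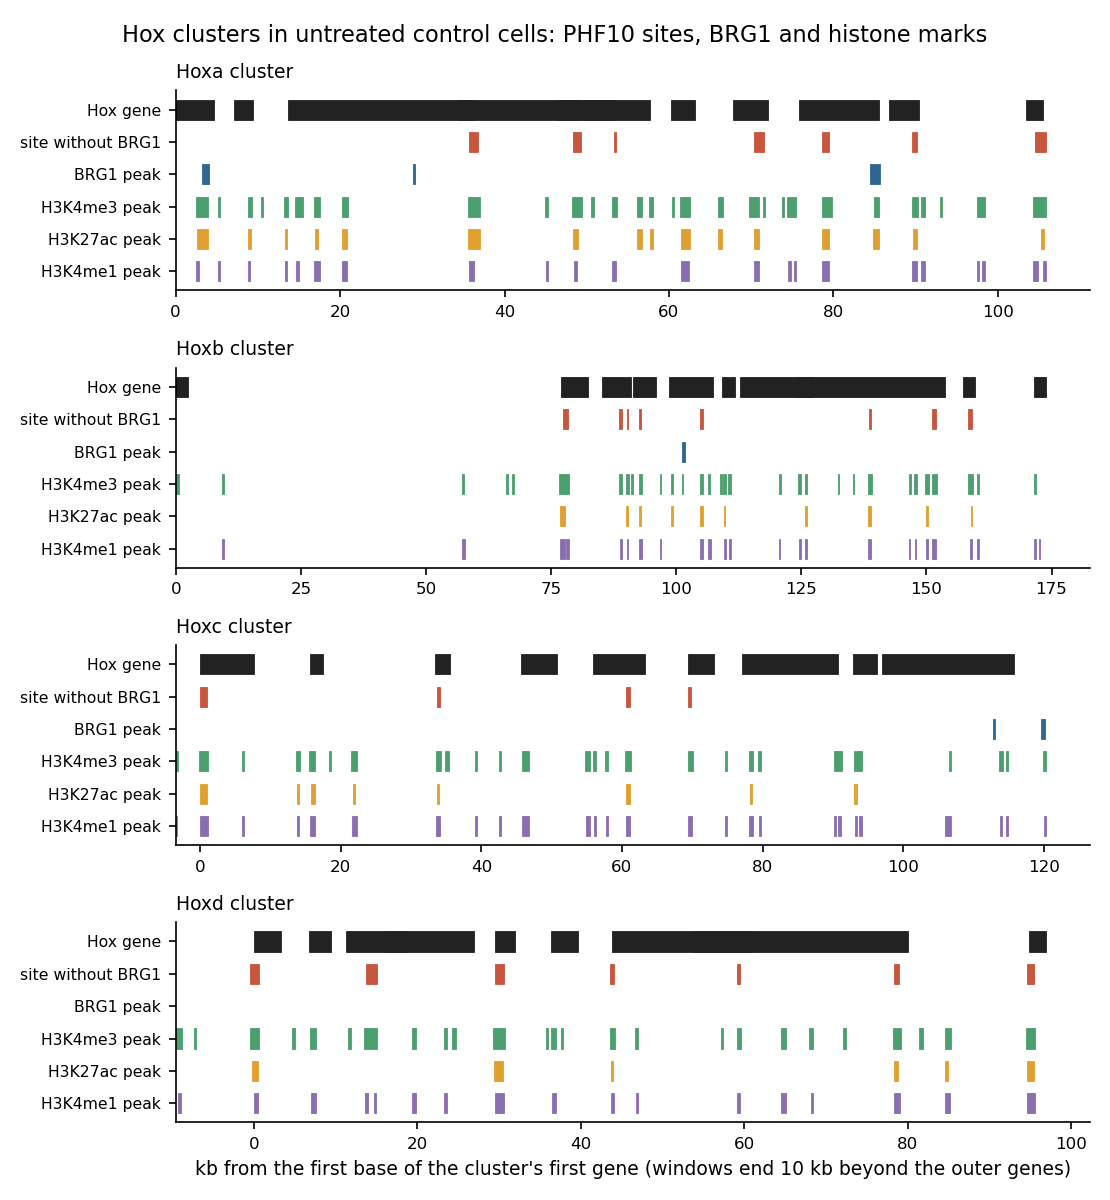
The 4 Hox clusters in untreated control cells, drawn to scale along the x axis (kb from the first base of the first gene), with rows for Hox genes, PHF10 sites without BRG1 and peaks of BRG1, H3K4me3, H3K27ac and H3K4me1. The 26 sites sit on H3K4me3 and H3K4me1 peaks, and the 6 BRG1 peaks lie at least 3098 bp from any of them.

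Sites at all Hox and developmental factor starts (99 sites) were read together, Hox sites included and not set apart, and had weak acetylation. H3K27ac at 0 h covered 84.8% of them with a median fold of 4.38, against 94.3% and 17.9 at the 2814 sites without BRG1 at other protein-coding starts. H3K4me1 covered 96.0% against 66.3%, and H3K18ac at 48 h 12.1% against 49.2%. The 44 sites with BRG1 at such factors had H3K27ac at 100%, with a median fold of 87.3. These sites were wide, with a median of 964 bp without BRG1 and 1482 bp with it.

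At epithelial genes, 9 of 35 had a site without BRG1 and 11 one with it. Those without BRG1 were Epcam, an adhesion molecule of epithelia, Cldn7 and Tjp3 of the tight junction, the epithelial regulators Esrp1, Grhl2 and Ovol1, the protease St14 and its inhibitor Spint1, and Pkp1 of the desmosome. Epcam had folds of 15.6 and 3.58 in the control libraries at 0 h, 5.39 at 24 h, 2.18 and 2.95 at 48 h, and 7.22 and 3.53 in KO cells at 0 and 48 h. The site lay 534 bp from the start (chr17:87636513-87637356). Its H3K27ac peak was weak at both times (9.80 at 0 h, 8.09 at 48 h), and that of Grhl2 (4.35 and 3.38) and Ovol1 (4.62 and 3.49) too. At Cldn7 and Esrp1 H3K27ac was called at 0 h (4.98 and 3.45) and not at 48 h. The site counted for Tjp3 lay 1284 bp from its start and at the start of Pip5k1c, and it was the exception in strength, with an H3K27ac fold of 120 at 0 h and 76.9 at 48 h.

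At mesenchymal and TGFβ response genes, 6 of 40 had a site without BRG1 and 11 one with it, with 1 gene in both. Twist1 had PHF10 folds of 16.5 and 3.41 at 0 h, 5.05 at 24 h, 2.92 and 3.37 at 48 h, and 3.69 in KO cells at both 0 and 48 h. Its site (chr12:33957130-33958687) had weak H3K27ac at 0 h (4.33) and 48 h (2.19) and H3K4me1 at 0 h (3.20). Snai1 (chr2:167537866-167538963) had stronger marks, with H3K4me3 at 21.1 and 25.4 and H3K27ac at 18.2 and 23.0 at 0 and 48 h, and H3K18ac called at 48 h (3.48) and not at 0 h. Zeb2, another repressor of epithelial genes, had PHF10 folds of 7.51 and 4.49 at 0 h, 4.62 at 24 h, 3.91 and 2.81 at 48 h and 3.76 in KO cells at 48 h, with no call in KO cells at 0 h. Tgfbr1, the type I TGFβ receptor, belonged to the strong group, with an H3K27ac fold of 95.3 at 0 h and 168 at 48 h, but it lay 192 bp from a BRG1 peak. The 192 sites within 1 kb of a BRG1 peak had a median H3K27ac fold of 45.0, and the 612 with none within 100 kb 5.11. The list also counted Lox, a collagen crosslinking enzyme, and Mmp2, a gelatinase, but the Mmp2 site sat at the start of Lpcat2, 1844 bp from 1 end of Mmp2, whose strand the tables do not give.

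The Pbrm1 promoter, shared with Gnl3, was among the most acetylated of the named sites (chr14:31018936-31019618). Its H3K27ac fold was 208 at 0 h and 174 at 48 h, and H3K18ac was called at both 0 h (4.42) and 48 h (116). PHF10 was called there in both genotypes, with folds of 10.4 and 3.74 in control cells and 6.04 in KO cells at 0 h, and of 2.62 and 3.27 in control cells and 2.86 in KO cells at 48 h. Mafk (161 and 112), Smarcc1 (123 and 124) and Smarce1 (182 and 162) had H3K27ac folds of like size at 0 and 48 h, whereas Dpf1 (9.81 and 16.5, 232 bp from a BRG1 peak), Spint1 (6.88 and 5.60), St14 (4.73 and 7.71) and Pkp1 (11.8 and 24.3) had weaker ones.

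The sites with the highest mean PHF10 fold were a mixed group. The highest, inside Chl1 (chr6:103649059-103649295, 237 bp wide), had PHF10 folds of 13.3 and 51.9 at 0 h and 13.5 in KO cells at 0 h, no PHF10 call at 24 or 48 h and no peak of any histone mark at either time. It also had an ATF3 peak at 24 h in both genotypes, with folds of 18.4 in control cells and 23.3 in KO cells, and one at 48 h in KO cells (5.96), so enrichment there was not limited to 1 antibody. Another 2 lay near 1 end of chromosome 9 (chr9:3004514-3004879 and chr9:3015183-3016187), with no protein-coding start within 100 kb. In the same order, they had ATF3 folds at 24 h of 6.36 and 6.76 in control cells and 4.87 and 10.97 in KO cells. H3K14ac (12.33 and 13.85) and H3K18ac (7.66 and 5.22) were called there at 0 h, so enrichment was not limited to PHF10. The others lay inside or at genes: Zfp316, Scarf2, Nrxn2, Nr2f6, Fignl2, Nefh and Zfp697. At these 7, the replicate 1 fold ran from 26.2 (Zfp697) to 33.9 (Zfp316), the replicate 2 fold from 3.21 (Scarf2) to 5.06 (Nr2f6), and H3K27ac at 0 h from 3.04 (Nrxn2) to 7.17 (Nr2f6).

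After TGFβ1, most of the sites were still called. The PHF10 list at 24 h covered 98.8% of those without BRG1 (98.5 to 99.2), against 100% of those with it (99.5% of all sites). At 48 h, replicate 1 covered 87.7% against 99.6% (94.2% of all sites), and replicate 2 covered 98.1% against 99.9% (99.0% of all sites). Both 48 h lists covered 87.4% without BRG1 (86.3 to 88.4) and 99.5% with it (93.9% of all sites). The replicates had 43549 and 102434 peaks, and 424 sites without BRG1 were called in the longer list only and 13 in the shorter only. Within the lists, the median fold was 2.98 without BRG1 and 3.90 with it in replicate 1, and 3.04 and 2.85 in replicate 2, so the order turned between replicates. These shares move with list length: with each PHF10 list trimmed to the 11285 peaks of lowest q, both 48 h lists covered 10.4% without BRG1 and 30.4% with it, the 24 h list 65.7% and 94.6%, and the KO list at 48 h 14.9% and 25.1%.

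Of the sites without BRG1, 64 (1.61%) were in neither 48 h list, and none of the sites with BRG1 was (0.741% of all sites). By mean fold the first 5 were the Chl1 site, a site far from genes on chromosome 2 (chr2:98664903-98665225), sites inside Grin3a and Cacna1g, and another near the end of chromosome 9 (chr9:3006695-3007670). The chromosome 2 site had no H3K4me3 or H3K27ac call. It did have H3K14ac at 0 h (7.51) and 48 h (4.72), H3K18ac at 0 h (2.49) and H3K4me1 at 48 h (2.68). Like the Chl1 site it had ATF3 peaks at 24 h in both genotypes (6.92 in control and 8.94 in KO cells), so enrichment there was not limited to PHF10. The Cacna1g site, in a calcium channel gene (chr11:94436573-94437081), had folds of 10.8 and 4.69 at 0 h, 5.86 at 24 h and 5.54 in KO cells at 0 h. The 488 sites missing from replicate 1 had a median width of 441 bp against 626 bp for those in it, lay at a protein-coding start in 47.1% against 76.9%, and had H3K27ac at 0 h in 67.6% against 94.5%.

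Acetylation at the sites without BRG1 differed between the lists at 0 and 48 h. H3K27ac was called at 0 h only at 500 of these sites (12.6%), against 15 of those with BRG1, and at 48 h only at 75 against 0; the list had 20507 peaks at 0 h and 15962 at 48 h. At 48 h it covered 80.5% (79.2 to 81.7) against 99.5% (90.8% of all sites, and 95.9% of them at 0 h). H3K18ac was called at 48 h only at 1408 sites (35.4%) against 3067 (65.8%), with 13226 peaks in the list at 0 h and 20415 at 48 h. At 48 h it covered 39.2% (37.7 to 40.7) against 93.2% (68.3% of all sites, and 16.8% of them at 0 h). H3K14ac at 48 h covered 98.7% against 100% (99.4% of all sites), but its lists had 3453 peaks at 0 h and 35270 at 48 h. H3K4me3 at 48 h covered 98.2% against 99.9% (99.2% of all sites), and H3K4me1 at 48 h 78.5% (77.2 to 79.8) against 58.0% (67.4% of all sites). Each mark had 1 library a time, so the times could not be tested against each other. The 0 h lists of H3K14ac and H3K18ac give folds to fewer decimals than their 48 h lists. Whether peaks were also called differently at the times was not tested.

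Without Pbrm1, PHF10 was called at 91.3% of the sites without BRG1 at 0 h (90.3 to 92.1), against 98.7% of those with it (95.3% of all sites), and at 48 h at 98.0% against 99.9% (99.1% of all sites). Of the 407 sites missing from the KO list at 0 h, 347 had no BRG1. They were narrow, with a median width of 377 bp against 631 bp for the sites present. They were weak in replicate 1, with a median fold of 5.73 against 9.15, but not in replicate 2, with 3.91 against 3.96. In the 3 strata of PHF10 fold, the KO list at 0 h covered 84.1%, 95.3% and 99.9% of the sites without BRG1 and 95.7%, 99.3% and 99.9% of those with it, nearly the same in the highest stratum. With only KO peaks of −log10 q of at least 5, it covered 51.9% without BRG1 and 84.5% with it. At 48 h the KO list covered 87.9% of the 347. All 5 other PHF10 lists shared 81.6% of the sites without BRG1 and 98.2% of those with it.

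In all control PHF10 lists but not in the KO list at 0 h were 216 sites without BRG1 (5.43%, 4.75 to 6.18), against 58 with it (1.24%; 3.17% of all sites). The 5 with the highest fold lay at Sptbn4, a spectrin of axons, Gpatch3, Gpr75, an orphan receptor, and Pmpcb, a mitochondrial processing peptidase, and inside Epha10, an ephrin receptor. At Sptbn4 (chr7:27446198-27446807) the folds were 13.8 and 3.53 in control cells at 0 h, 4.97 at 24 h, 3.40 and 2.84 at 48 h and 3.21 in KO cells at 48 h. Their H3K27ac folds at 0 h ranged from 3.94 (Epha10) to 101 (Pmpcb), so the group held sites of both strengths. No site without BRG1 was outside the H3K4me3 list at 0 h and in all 7 PHF10 lists; 35 were outside the H3K4me3 list.

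The ATF3, FOSL2 and FOSB lists seldom met these sites, apart from the long ATF3 lists at 48 h. ATF3 at 24 h covered 2.47% without BRG1 and 1.93% with it (2.18% of all sites), with overlapping intervals of 2.01 to 3.00 and 1.56 to 2.37. At 48 h ATF3 covered 99.1% without BRG1 and 100% with it in control cells (99.6% of all sites). In KO cells it covered 89.0% (88.0 to 90.0) and 97.3% (93.5% of all sites), although the KO list was longer, with 144513 peaks against 45716. FOSL2 at 48 h covered 4 sites without BRG1 and 46 with it in control cells (0.579% of all sites), and 8 and 76 in KO cells (0.973% of all sites). Within 10 kb of a FOSL2 peak of control cells at 48 h lay 2.94% of the sites without BRG1 and 6.59% of those with it. The untreated lists of the 3 factors, with 2 to 25 peaks each in either genotype, met 8 sites without BRG1 and 10 with it.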

How the data were processed

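ChIP-seq peak lists were used as deposited, 1 per library, and the series' 15 inputs have no list. The labels' protocols give formaldehyde as the only fixative for FOSL2, FOSB and the histone marks, and a first step of disuccinimidyl glutarate for ATF3, BRG1 and PHF10. The build named in the submitters' processing notes is mm10, and the tools listed there are deepTools 3.5.1, Partek 11.0.24.0325, MACS3 3.0.0a7, Bowtie2 2.3.3 and fastp 0.19.5, with roles and settings not given in the sources used here. Per the file headers, which 2 lists have, and the like columns of the rest, each deposited peak has a pileup signal (not used for any comparison), −log10 p and q values against the input, and a fold enrichment, the authors' ratio of ChIP over input. The PHF10 and BRG1 lists reach down to a −log10 q of 1.00 and the histone mark lists to about 1.30. Read depth is unknown, so list length cannot be corrected for it, and folds were compared only within a list (folds printed for several lists are each on their own scale), except for the mean PHF10 fold over both 0 h replicates, which leans on the replicate with the larger values.

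Only the autosomes and both sex chromosomes were used, no high-signal regions were removed, and an overlap of 1 bp counted. File starts count from 0 (end minus start is the stated length), and positions here count from 1. Starts came from the RefSeq promoter table (GRCm38.p6) for 17492 of 21887 protein-coding genes, and either gene end stood in for the other 4395. Shares carry exact intervals at 95%. No test was made, since the 0 h PHF10 and BRG1 lists chose the sites and most other arms have 1 library. Interval functions were tested on simulated data. Members and gene lists were chosen with earlier results of these data known. Sites were named by rule: the 10 with the highest mean fold; up to 15 at genes of the SWI/SNF, AP-1, mesenchymal, epithelial and Hippo lists; the first 5 by fold in neither 48 h list, in all control lists but not the KO list at 0 h, and outside H3K4me3 but in all PHF10 lists; and the 5 nearest to and 5 farthest from BRG1. Zeb2, Smarce1, Cldn7, Snai1, Esrp1 and the Hox sites were added by list. Python 3.11.15 with numpy 2.4.6, pandas 2.3.3, scipy 1.17.1 and matplotlib 3.10.9 was used. Alternatives covered thresholds, overlap, replicates, list length, PHF10 strata and the distance to a start.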

Additional observations from a re-analysis of the deposited data

How the results depend on the processing

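Of 96 values under alternative settings, 20 stayed within 1.5 times the count or within the counting interval of the share and 76 moved. In all 86 alternative values of shares, the share was lower without BRG1 than with it, but the gap nearly closed in some. With only BRG1 peaks of −log10 q of at least 5, the share at gene starts was 83.2% without BRG1 and 83.6% with it, against 73.3% and 91.6% in the main setting. In the highest stratum the KO PHF10 0 h shares were 99.87% and 99.90%. The values are variants of the same few shares, and H3K4me1 was not among them. The cause of each move was not tested. Shares below are of sites without BRG1. With only BRG1 peaks of −log10 q of at least 5, 8518 sites had no BRG1, against 116 with it, and the shares were 99.5% (PHF10 24 h), 93.9% (both PHF10 48 h lists), 95.2% (KO PHF10 0 h), 99.0% (KO PHF10 48 h), 99.6% (H3K4me3 0 h), 95.8% (H3K27ac 0 h) and 83.2% (gene starts). With PHF10 0 h peaks of −log10 q of at least 5 the sites were 562 and the shares that moved 99.6% (PHF10 24 h), 93.2% (both PHF10 48 h lists), 98.0% (KO PHF10 0 h), 96.3% (H3K27ac 0 h) and 82.2% (gene starts). With PHF10 0 h peaks of fold of at least 5 the sites were 316 and the shares 98.1% (PHF10 24 h), 82.3% (both PHF10 48 h lists), 92.4% (KO PHF10 0 h), 95.6% (KO PHF10 48 h), 97.8% (H3K4me3 0 h), 88.3% (H3K27ac 0 h) and 68.7% (gene starts). In the lowest stratum of PHF10 fold the sites were 1760 and the shares 97.7% (PHF10 24 h), 84.2% (both PHF10 48 h lists), 84.1% (KO PHF10 0 h), 96.8% (KO PHF10 48 h), 98.3% (H3K4me3 0 h), 88.2% (H3K27ac 0 h) and 70% (gene starts). In the middle stratum they were 1416 and the shares 99.7% (PHF10 24 h), 88.9% (both PHF10 48 h lists), 95.3% (KO PHF10 0 h), 98.9% (KO PHF10 48 h), 99.93% (H3K4me3 0 h), 92.4% (H3K27ac 0 h) and 75.2% (gene starts). In the highest stratum they were 799 and the shares 99.7% (PHF10 24 h), 91.7% (both PHF10 48 h lists), 99.9% (KO PHF10 0 h), 99.4% (KO PHF10 48 h), 99.5% (H3K4me3 0 h), 95.4% (H3K27ac 0 h) and 77.1% (gene starts). When 50% of the shorter interval had to overlap, 2 shares moved, to 84.9% (both PHF10 48 h lists) and 97.3% (KO PHF10 48 h). With only peaks of −log10 q of at least 5 in the list described, the shares that moved were 75.8% (PHF10 24 h), 9.94% (both PHF10 48 h lists), 51.9% (KO PHF10 0 h), 20.9% (KO PHF10 48 h) and 86.9% (H3K27ac 0 h). With the PHF10 lists trimmed to the 11285 peaks of the shortest, they were 65.7% (PHF10 24 h), 10.4% (both PHF10 48 h lists) and 14.9% (KO PHF10 48 h). The share at gene starts was 67.3% within 500 bp, 83.6% within 10000 bp and, in an alternative chosen after seeing the data, 79.5% with the starts of all RefSeq genes. Leaving out a PHF10 0 h replicate (sites of the other alone) gave 6614 to 8923 sites. The shares then ranged over 75.4% to 81.8% (PHF10 24 h), 51.4% to 66.3% (KO PHF10 0 h), 76.3% to 84.3% (KO PHF10 48 h), 76.9% to 84.6% (H3K4me3 0 h), 66.2% to 67.4% (H3K27ac 0 h) and 51.8% to 53.2% (gene starts), and over 62.6% to 98.1% (PHF10 48 h, where each 48 h replicate was left out too). No paired analysis was possible because the replicate numbers that 0 h and 48 h share join lists of which the 0 h ones chose the sites, and no result comes from a test.

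The number of sites without BRG1 rests on 1 BRG1 library whose peaks over PHF10 sites were weak. Depth is unknown, so a share of sites called in a list moves with the length of that list.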
